A study of Mus musculus with 10 samples.

Results

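The genes described here build and load major histocompatibility complex (MHC) class I molecules, together with one gene best known from the class II route. They were chosen by name: H2-K1, H2-D1, B2m, Tap1, Tap2, Tapbp, Psmb8, Psmb9, Nlrc5 and Cd74, which are 10 of the 46517 Ensembl genes in the count tables. Their transcripts were followed in lymphatic and blood endothelial cells (LECs and BECs) of mouse ear skin. The labels call the sorted cells LECs, but the plates hold both types. Single cells had been sorted by Podoplanin and CD31 into 384-well plates, with CD45, CD11b and Ter119 positive cells and dead cells discarded, and sequenced with Smart-Seq2, a full-length method without molecular identifiers. All mice were 5 wk old. The 5 mutant mice carried Pik3caH1047R, a Cre-activated chicken PIK3CA transgene in the Rosa26 locus that encodes a hyperactive PI3K subunit, and Cdh5-CreERT2, in which the promoter of the pan-endothelial Cdh5 gene drives a tamoxifen-activated Cre. They were Cre+ and had received 4-OHT, the active form of tamoxifen, on the ears at 3 wk of age, and mutants 3 and 5 filled 2 plates each. Control 1 was an untreated C57BL/6J mouse, and control 2 was a Cre- mouse of the Pik3caH1047R;Cdh5-CreERT2 cross given the same 4-OHT. Another control mouse was not analysed here, and because the transgene is not among the counted genes, recombination in single cells was not checked.

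In the class I pathway, proteasomes cut cytosolic proteins into peptides, the TAP1-TAP2 transporter carries the peptides into the endoplasmic reticulum, and tapasin (Tapbp) holds empty class I molecules beside the transporter until a fitting peptide is bound. The class I molecule itself is a heavy chain, such as those encoded by H2-K1 and H2-D1, paired with beta-2 microglobulin (B2m), and it presents its peptide to CD8 T cells. PSMB8 and PSMB9 replace constitutive catalytic subunits in the immunoproteasome, and NLRC5 is the transactivator that acts at the promoters of class I genes as CIITA does for class II genes. The invariant chain, encoded by Cd74, accompanies class II molecules and is most abundant in professional antigen-presenting cells. Most of these genes are interferon-inducible, and endothelial cells are known to carry class I on their surface.

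Of the 10 genes, 7 lie in the MHC region of chromosome 17 (GRCm38). H2-K1 is at chr17:33996017-34000347 on the minus strand, and Tapbp is at chr17:33915899-33929292 on the plus strand. Psmb9 (chr17:34181987-34187764, minus strand) and Tap1 (chr17:34187553-34197225, plus strand) overlap head to head by 212 exon bases, which are 5.79% of the exon bases of Psmb9 and 3.87% of those of Tap1. Psmb8 (chr17:34197721-34201454) and Tap2 (chr17:34203527-34216321) follow on the plus strand. H2-D1 is at chr17:35262730-35267499, B2m at chr2:122147686-122153083 and Nlrc5 at chr8:94434356-94527272, all on the plus strand. The strand setting of the counting is not given in the sources used here, so reads in overlapping exons cannot be assigned with certainty. Such exons make up 29.0% of the exon bases of Tapbp, 18.5% of Tap2 and 14.7% of Psmb8. H2-K1 and H2-D1 also have near-identical relatives among the H2-Q and H2-T genes, so the split of reads between these genes is uncertain.

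The promoters of the heavy chains and of B2m shared one arrangement of short motifs. It is shown here because each of these genes was detected in most cells of both types and because the factors that assemble on such motifs are the partners of NLRC5. RefSeq promoter windows (GRCm38.p6, 250 bases before the start) were available for 7 of the 10 genes. In 3 of the 7 windows, a TGACG was followed on the same strand by an ATTGG, with 25 bases from the first base of one to the first base of the other. This pair stood in 0.0913% of all 32851 windows. The pairs, with both motifs in capitals, run 5′ to 3′ along the gene's strand at chr2:122147609-122147638 (plus), chr17:35262993-35263022 (plus) and chr17:34000359-34000388 (minus).
B2m: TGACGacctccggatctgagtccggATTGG
H2-D1: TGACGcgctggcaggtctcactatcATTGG
H2-K1: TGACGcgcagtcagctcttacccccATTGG

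The 180 bases before the start of B2m (chr2:122147506-122147685, plus strand) and of H2-K1 (chr17:34000349-34000528, minus strand) are given to show what lies around the pair. Capitals mark the pair and matches to GGGNNTTNCC, an NF-kB type motif, and GAAANNGAAA, an interferon-response type motif, on either strand.
B2m upstream: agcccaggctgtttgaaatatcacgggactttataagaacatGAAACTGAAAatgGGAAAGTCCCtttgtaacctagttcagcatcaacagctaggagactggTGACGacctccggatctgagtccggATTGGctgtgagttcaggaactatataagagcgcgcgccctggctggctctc
H2-K1 upstream: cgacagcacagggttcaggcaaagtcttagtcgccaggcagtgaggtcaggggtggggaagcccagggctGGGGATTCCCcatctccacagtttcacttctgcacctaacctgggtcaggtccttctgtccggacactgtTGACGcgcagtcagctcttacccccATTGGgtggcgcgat

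The NF-kB type motif stood in the windows of B2m, H2-D1 and H2-K1 and in 4.11% of all windows, and the interferon-response type motif stood in that of B2m and in 2.98% of all windows. Taken singly and on either strand, TGACG was in 5 of the 7 windows (17.8% of all) and CCAAT in 6 of the 7 (33.8% of all). The windows of Tap1, Psmb8, Psmb9 and Tapbp did not hold the spaced pair. A match describes letters in a window, and binding was not measured. Only exact matches were counted, so a window without a match, such as that of H2-K1 for the interferon-response type, may still hold a variant site.

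After filtering, 3248 cells remained, 2524 from mutant and 724 from control mice. A cell was taken as a LEC when its summed CPM (reads of a gene per 1000000 reads) of Prox1, Flt4 and Mmrn1 reached 300 and exceeded the sum of Flt1, Emcn and Podxl, and as a BEC in the reverse case. This gave 1641 LECs and 1490 BECs, 175–367 LECs and 157–330 BECs per mouse, while 117 cells were neither. Markers that the rule did not use went with the labels: 6 of 6 LEC markers, among them Pdpn and Lyve1, were higher in LECs, and 6 of 6 BEC markers, among them Cd36 and Plvap, were lower. Reads were then summed per mouse and cell type, giving 55616045–194353210 reads per LEC sum and 38402388–99630824 per BEC sum, and the mouse was the replicate. Each P value therefore rests on mice and not on cells. The main comparisons used 7 mice, of which 2 were controls, except that of LECs by Ptx3, which used the 5 mutants. Comparisons of LECs with BECs, and by Ptx3, were made within each mouse. The plates of mutants 1–4 carried numbers from 323 to 332, whereas those of mutant 5 (891 and 892) and of both controls (895 and 901) carried numbers from another range, so that genotype and plate series cannot be told apart except through mutant 5.

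The class I pathway was expressed at a higher level in BECs than in LECs, from the heavy chains to the immunoproteasome. Of the 10 genes, 9 were lower in LECs in edgeR's quasi-likelihood test with the mouse as a block (Benjamini-Hochberg adjusted p under 0.05), where 22% of the 21933 genes tested were called in either direction and 10.2% as lower. DESeq2 called the same number of the 10 and 30.2% of all genes. The median log2 difference of the 10 genes, LECs over BECs, was -1.62, against 0.02 for all genes tested. Cd74 was the exception.

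H2-K1 stood at 331, 434.5 and 569 CPM in LECs (lowest, median and highest mouse) and at 1291, 1534 and 1898 CPM in BECs. The lowest BEC sum was thus above the highest LEC sum, and BECs exceeded LECs 2.97-fold to 4.72-fold within each mouse. The log2 difference was -1.72 (SE 0.09, adjusted p = 4.22e-06). H2-D1 was more even, at 839, 1149 and 1264 CPM in LECs and 1605, 1919 and 2265 CPM in BECs, with a log2 difference of -0.82 (SE 0.05, adjusted p = 1.26e-05). Its BEC to LEC ratio, 1.67 to 2.01, was the lowest of the 9 genes in its median. B2m, the shared light chain, was at 375, 501 and 693 CPM in LECs and 847, 1158 and 1914 CPM in BECs, a log2 difference of -1.22 (SE 0.09, adjusted p = 2.08e-05). Its levels in LECs and BECs did not overlap either.

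The transporter and its partner followed. Tap1 was at 15.9, 31.9 and 51.2 CPM in LECs against 109, 142 and 174 CPM in BECs. The log2 difference of -2.13 (SE 0.17, adjusted p = 3.98e-05) corresponded to a 4.38-fold higher level in BECs. Tap2, its partner in the transporter, was at 75.0, 91.7 and 96.7 CPM against 220, 258 and 307 CPM, which was a log2 difference of -1.53 (SE 0.10, adjusted p = 1.33e-05). Tapbp stood at 222, 281.5 and 323 CPM in LECs and at 602, 761 and 820 CPM in BECs, a log2 difference of -1.38 (SE 0.08, adjusted p = 7.96e-06). For none of these 3 genes did the levels of LECs and BECs overlap.

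The immunoproteasome subunits had the largest differences of the 10 genes. Psmb8 was at 19.1, 39.8 and 47.5 CPM in LECs and at 232, 253 and 346 CPM in BECs, so that BECs exceeded LECs by 4.89-fold to 14.8-fold within a mouse (log2 difference -2.77, SE 0.18, adjusted p = 1.4e-05). Psmb9 was at 13.5, 17.2 and 26.1 CPM in LECs and at 58.0, 76.3 and 161 CPM in BECs, with a log2 difference of -2.29 (SE 0.13, adjusted p = 6.82e-06). Again the lowest BEC sum was above the highest LEC sum.

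Nlrc5 was rare in both cell types, at 1.73, 2.86 and 7.93 CPM in LECs and 3.49, 9.80 and 34.9 CPM in BECs. It was higher in BECs in 6 of 7 mice, and mutant 5 had the reverse. The log2 difference was -1.77 (SE 0.48, adjusted p = 0.0292), a call that was lost without control 1 (adjusted p = 0.0527), control 2 (0.0555), mutant 2 (0.0667), mutant 3 (0.0597) or mutant 4 (0.0721), and at a marker ratio of at least 5 (0.0607). Cd74 stood at 1.06, 8.73 and 14.6 CPM in LECs and at 1.44, 4.94 and 25.8 CPM in BECs and was higher in BECs in 3 of 7 mice (log2 difference 0.20, SE 0.75, adjusted p = 0.899).

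**Figure D1:**
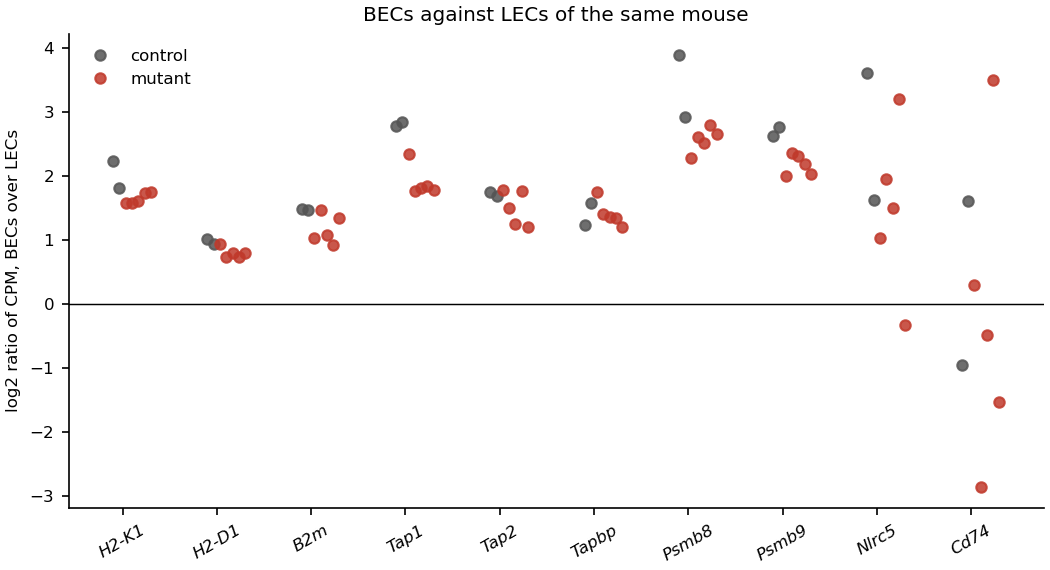
Log2 ratio of the CPM in BECs to the CPM in LECs of the same mouse (y axis) for the 10 genes (x axis), with 1 point per mouse (grey, 2 control mice; red, 5 mutant mice) and a line at equal levels. All 7 mice lie above the line for the first 8 genes, 6 of 7 for Nlrc5 and 3 of 7 for Cd74.

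Mural cells could have entered the BEC gate, and their markers (Rgs5, Pdgfrb, Acta2, Myh11) were lower in LECs for 3 of 4 genes. Their summed level was 31.0–57.3 CPM in mutant LECs and 35.2–198 CPM in mutant BECs, and 85.7–114 CPM in control LECs and 287–630 CPM in control BECs. Fibroblast markers were called in 0 of 4 cases. The part of such cells in the differences above was not tested. Limiting the comparison to cells whose higher marker sum was at least 5 times the lower one removed 445 LECs and 143 BECs and kept the calls of the 8 genes other than Nlrc5 and Cd74. For H2-K1 the median over mice was 1176 CPM in BECs under a ratio of 5 and 1584 CPM in the others, and 436 and 438 CPM in the corresponding LECs. For Nlrc5 the order of the cell types turned, with 2.75 CPM in BECs and 7.10 CPM in LECs under a ratio of 5, against 10.8 and 1.51 CPM in the others. Cells that were neither had a median of 714 CPM of H2-K1 with a wide range over mice (27.2–1867 CPM).

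Ordered by CPM per kilobase of exon, B2m was the most abundant of the 10 transcripts in both cell types, at 591 ± 129 in LECs and 1428 ± 405 in BECs (SD, n = 7 mice). H2-D1 (423 ± 62.6 and 760 ± 87.0) and H2-K1 (175 ± 33.4 and 584 ± 79.2) followed, then Tapbp (84.8 ± 12.9 and 224 ± 23.9). In LECs the levels of B2m and H2-D1 overlapped between mice, whereas H2-D1 and H2-K1 did not, and in BECs it was H2-D1 and H2-K1 that overlapped. Psmb8 stood above Tap2 in BECs (97.2 ± 14.5 and 69.6 ± 9.01 CPM per kilobase) and below it in LECs (14.2 ± 3.49 and 23.5 ± 2.32), without overlap in either. Tap1, Cd74 and Psmb9 (5.01–6.11 CPM per kilobase) could not be ordered in LECs, nor Psmb9 and Tap1 (26.5 ± 12.0 and 25.8 ± 4.52) in BECs. Nlrc5 had the lowest mean in both, at 0.50 ± 0.28 and 2.03 ± 1.51 CPM per kilobase, although in BECs its range overlapped that of Cd74.

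**Figure D2:**
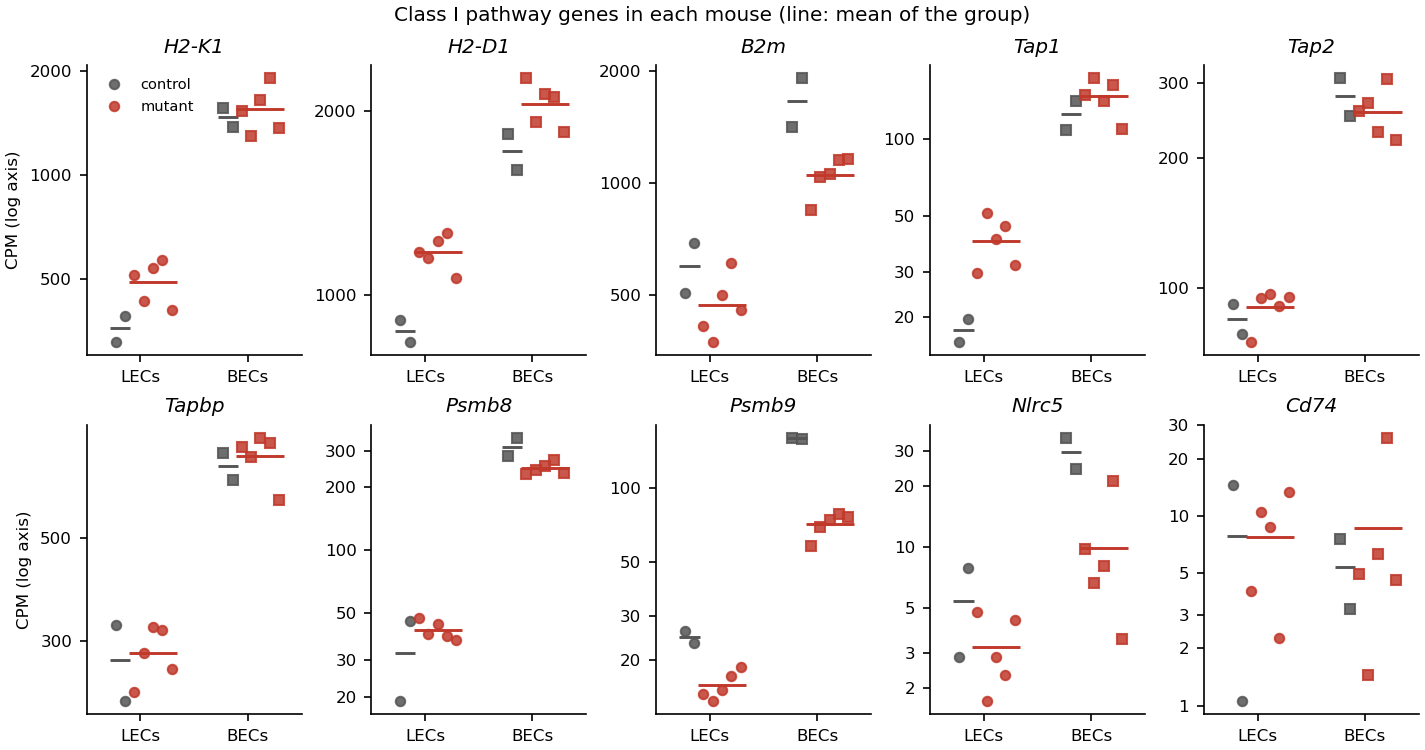
CPM of each of the 10 genes (1 panel each, log y axis) in LECs (circles) and BECs (squares), with 1 point per mouse, controls in grey and mutants in red, and a line at the mean of each group. The control and mutant points of Psmb9 separate in both cell types, with 159 CPM or more in control BECs and 78.4 CPM or less in mutant BECs.

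Mutant mice were next compared with controls, the question being whether PI3K activation in the endothelium went with a change in class I genes. In LECs, 0 of 10 genes passed edgeR's test over all genes (2.76% of 19758 genes tested were called), with 4 of 10 at an unadjusted p under 0.05 (H2-K1, H2-D1, Tap1 and Psmb9), against 20.1% of all genes tested. DESeq2, the alternative tool, called 12.6% of all genes and 3 of the 10, namely Tap1, H2-D1 and Psmb9. In 4 of 10 genes the mutant and control mice did not overlap, against 25.5% of all genes tested.

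Tap1 had the largest difference in LECs. It was at 15.9 and 19.7 CPM in the 2 controls and at 29.7, 51.2, 40.4, 45.6 and 31.9 CPM in mutants 1–5. Every mutant was above both controls, mutant 5 on their plate series included, and the fitted log2 difference was 1.18 (SE 0.28), or 2.27-fold, with an adjusted p of 0.0629 in edgeR and 0.0007 in DESeq2. H2-D1 was at 911 and 839 CPM in controls and at 1179, 1149, 1229, 1264 and 1068 CPM in mutants. Here too every mutant was above both controls (log2 difference 0.45, SE 0.10, edgeR adjusted p = 0.0596, DESeq2 0.010). Mutant 5, on the plate series of the controls, was the lowest mutant, at 1068 CPM. H2-K1 was at 331 and 392.5 CPM in controls and at 514, 434.5, 539, 569 and 409 CPM in mutants, with no overlap but a narrow gap (log2 difference 0.47, SE 0.16, edgeR adjusted p = 0.160). The gap lay between control 2 (392.5 CPM) and mutant 5 (409 CPM), which share a plate series.

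Psmb9 went the other way from Tap1, its neighbour on the opposite strand. It was at 26.1 and 23.4 CPM in control LECs and at 14.5, 13.5, 15.0, 17.2 and 18.7 CPM in mutant LECs, all below the controls (log2 difference -0.62, SE 0.25, edgeR adjusted p = 0.212, DESeq2 0.044). Mutant 5, at 18.7 CPM, was the mutant nearest to the controls. The groups overlapped for the other 6 genes. B2m was at 508 and 693 CPM in controls and 375–612 CPM in mutants (log2 difference -0.32, SE 0.21), and Psmb8 was at 19.1 and 45.7 CPM in controls and 37.2–47.5 CPM in mutants, so that the distance between the controls exceeded that among the mutants. Tap2 (78.0 and 91.7 against 75.0–96.7 CPM) and Tapbp (222 and 323 against 232–321 CPM) overlapped over nearly their whole range.

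Psmb9 was lower in mutant than in control BECs, and it was the only one of the 10 genes called there by edgeR (2.12% of 19315 genes tested were called, 0.611% as lower). Its level was 161 and 159 CPM in the controls and 58.0, 69.7, 74.4, 78.4 and 76.3 CPM in mutants 1–5. All mutants were far below both controls, which lay close together, as did the mutants. The fitted log2 difference was -1.17 (SE 0.16, edgeR adjusted p = 0.0124), or 2.25-fold. Mutant 5, which shares the plate series of the controls, was at 76.3 CPM and so stood with the other mutants. The call held in 15 of 19 alternatives and was lost, among others, without control 1 (adjusted p = 0.0519), without control 2 (0.0542) and with the plate series as a block (0.241), while the log2 difference stayed between -1.35 and -1.05 in all 19 alternatives.

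Other genes of the 10 did not pass in BECs with edgeR, and DESeq2, which called 11.6% of all genes, added B2m to Psmb9. B2m was at 1418 and 1914 CPM in controls and at 847, 1037, 1057, 1158 and 1165 CPM in mutants, without overlap (log2 difference -0.66, SE 0.16, edgeR adjusted p = 0.0763, DESeq2 0.0067). B2m is a short transcript of 860 exon bases, and tested genes of 500–1000 exon bases had a median log2 difference of -0.36 in BECs and -0.28 in LECs, against 0.10 and 0.04 for genes of 2000–4000 bases. With the trend of exon length removed, the difference of B2m in BECs was -0.30 (adjusted p = 0.316) and that of Psmb9, of 3659 bases, was -1.33 (adjusted p = 0.0077).

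Nlrc5 in BECs was at 34.9 and 24.4 CPM in controls and at 9.80, 6.66, 8.07, 21.4 and 3.49 CPM in mutants. All mutants were below both controls, with a wide spread among them (log2 difference -1.59, SE 0.58, edgeR adjusted p = 0.187). Psmb8 was at 282 and 346 CPM in controls and at 232, 243, 253, 270.4 and 235 CPM in mutants, again without overlap (log2 difference -0.35, SE 0.13, adjusted p = 0.207). H2-D1 was at 1834 and 1605 CPM in controls and at 1847–2265 CPM in mutants, with no overlap and a log2 difference of 0.25 (SE 0.12, adjusted p = 0.271). The lowest mutant was mutant 5, at 1847 CPM, close to control 1 at 1834 CPM. In all, 5 of 10 genes did not overlap between the genotypes in BECs, where 25.1% of all genes tested did not. The remaining genes had log2 differences of -0.12 (Tap2), 0.07 (H2-K1 and Tapbp), 0.24 (Tap1) and 0.67 (Cd74) in BECs, each with overlapping mice.

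**Figure D3:**
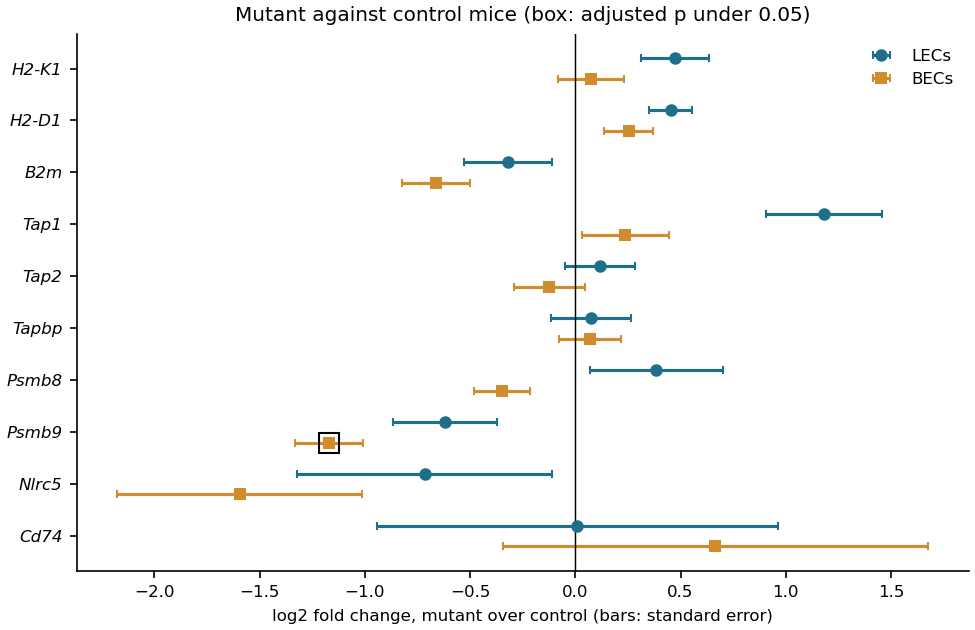
Log2 fold change of mutant over control mice (x axis) for each gene (y axis) in LECs (blue circles) and BECs (orange squares), with the standard error as bars and a box around the difference with an adjusted p under 0.05. The box is on Psmb9 in BECs at -1.17, and Tap1 in LECs lies at 1.18 without one.

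Other measures moved with genotype. The summed level of 4 fibroblast markers (Col1a1, Pdgfra, Dcn, Lum) was 372–484 CPM in control BECs and 11.7–33.3 CPM in mutant BECs, and 108–277 CPM and 13.6–75.3 CPM in LECs, with all 4 detected in each group. Mural markers were at 287–630 CPM in control and 35.2–198 CPM in mutant BECs. Genes of the cell cycle, 7 of 7 of which were called higher in mutant LECs and 3 of 7 in mutant BECs, had summed levels of 395–652 CPM in mutant and 55.0–76.2 CPM in control LECs. Their part in the differences of Psmb9, B2m and Tap1 was not tested, except that without cycling cells Psmb9 in BECs had a log2 difference of -1.17 (adjusted p = 0.0181) and Tap1 in LECs one of 1.21 (adjusted p = 0.195).

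A test of the difference between the mutant effects in LECs and BECs called 0 of 10 genes (edgeR, 0.191% of 21933 genes called), with 4 of 10 at an unadjusted p under 0.05, against 11.5% of all genes tested. Both comparisons rest on the same mice. Tap1 differed by 0.90 on the log2 scale (SE 0.21, edgeR adjusted p = 0.153, DESeq2 0.0029), Psmb8 by 0.83 (SE 0.27, edgeR adjusted p = 0.283), Psmb9 by 0.52 (SE 0.21, 0.386) and H2-K1 by 0.38 (SE 0.13, 0.324). Each mutant effect was higher in LECs than in BECs, which for Psmb9 meant a less negative one (-0.62 against -1.17). DESeq2 called 5.74% of all genes in this comparison and, of the 10, Tap1 alone. The effect on Psmb9 was therefore not shown to differ between cell types.

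Because Tap1 and Psmb9 start side by side on opposite strands, their ratio was also taken within each sum. Tap1 CPM over Psmb9 CPM was 0.611 and 0.840 in control LECs and 1.71–3.78 in mutant LECs, and 0.677 and 0.889 in control BECs and 1.44–2.58 in mutant BECs. The genotypes did not overlap in either cell type, and the exact two-sided permutation p was 0.0952 in both, the smallest that 5 against 2 mice allow over 21 splits. The ratio was chosen after the values of both genes were known. In LECs the genotypes were already separated by Tap1 and, in the other direction, by Psmb9, so the ratio had to separate them. In BECs Psmb9 already separated the genotypes, while Tap1 overlapped. The permutation p of the ratio therefore adds no evidence to the values of the single genes.

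The sums cannot tell fewer expressing cells from less RNA per cell, so the cells were examined singly after thinning each to 50000 reads, the depth every kept cell reached. Psmb9 was detected in 52.2% and 38.9% of control BECs and in 45.4, 56.0, 49.7, 47.7 and 36.0% of mutant BECs. These shares overlapped (mean 45.5% in controls and 46.9% in mutants, exact permutation p = 0.857). In the cells with a read, the mean level was 279 and 391 CPM in the controls and 126, 113, 141, 161 and 207.5 CPM in the mutants, which did not overlap. Without thinning the shares were 79.9 and 55.4% in controls and 53.5–65.2% in mutants.

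**Figure D4:**
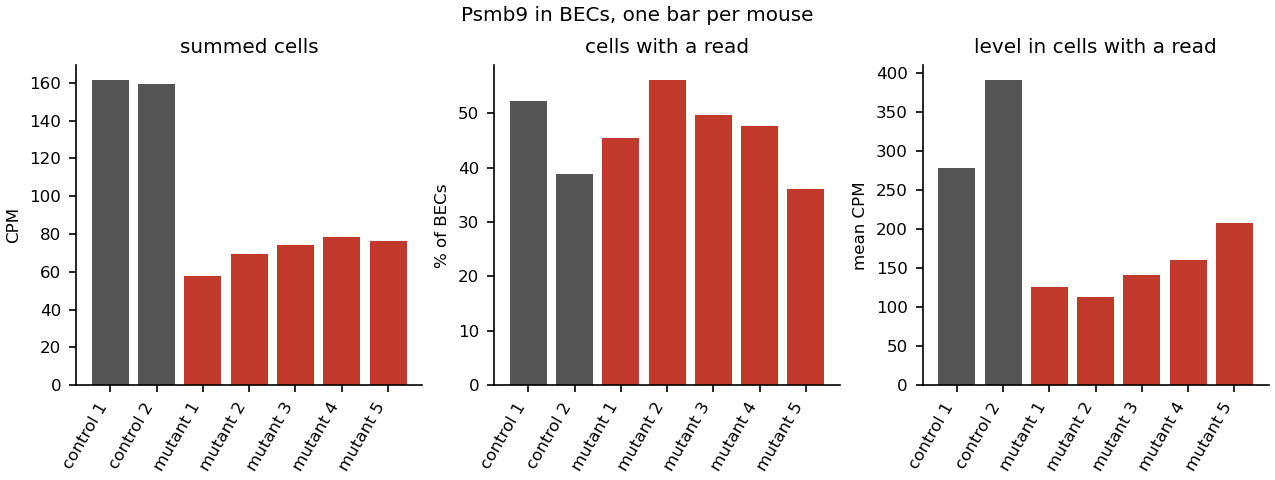
Psmb9 in the BECs of each mouse (x axis; grey bars, controls; red bars, mutants): CPM of the summed cells (left), percentage of BECs with a Psmb9 read after thinning to 50000 reads (middle) and mean CPM of the BECs with a read (right). Controls are above every mutant in the left and right panels and lie among the mutants in the middle one.

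Over the 10 genes and both cell types, 3 of 20 shares did not overlap between the genotypes (Tap1 in LECs, and Tap1 and Nlrc5 in BECs), against 28.9% of all genes tested in LECs and 26.3% in BECs. Each of the 3 was at the smallest possible p of 0.0952 (exact permutation test, adjusted p = 0.635 over the 20 tests). Tap1 was detected in 13.6–24.7% of mutant and 11.4–13.1% of control LECs, and in 34.7–45.9% of mutant and 28.9–33.1% of control BECs. These Tap1 shares were not stable, since without thinning they were 26.7–45.2% against 36.0–44.8% in LECs and 51.1–67.2% against 56.1–58.5% in BECs. Nlrc5 was detected in 3.63–8.62% of mutant and 12.1–13.2% of control BECs, and without thinning in 6.60–16.1% against 15.3–36.5%.

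Between the cell types the shares were further apart. H2-D1 and B2m were found in nearly every cell (99.4 ± 0.81% and 98.3 ± 1.14% of LECs, SD over 7 mice, and 100% of BECs for both), and H2-K1 in 91.0 ± 5.31% of LECs and 98.9 ± 0.42% of BECs. Psmb8 was found in 24.9 ± 1.92% of LECs and 73.1 ± 7.35% of BECs, Psmb9 in 17.7 ± 4.24% and 46.5 ± 7.13%, Tap2 in 35.5 ± 7.19% and 62.2 ± 5.18%, Tap1 in 16.4 ± 4.83% and 37.4 ± 6.10%, and Tapbp in 76.6 ± 5.53% and 92.8 ± 5.16%. The range over mice in LECs lay below that in BECs for each of these genes but Tapbp and H2-D1, whose ranges met. They were 66.8–83.9% in LECs and 82.2–97.8% in BECs for Tapbp, and 97.7–100% in LECs and 100% in BECs for H2-D1. Cd74 was found in 4.73 ± 4.25% of LECs and 4.90 ± 4.47% of BECs.

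**Figure D5:**
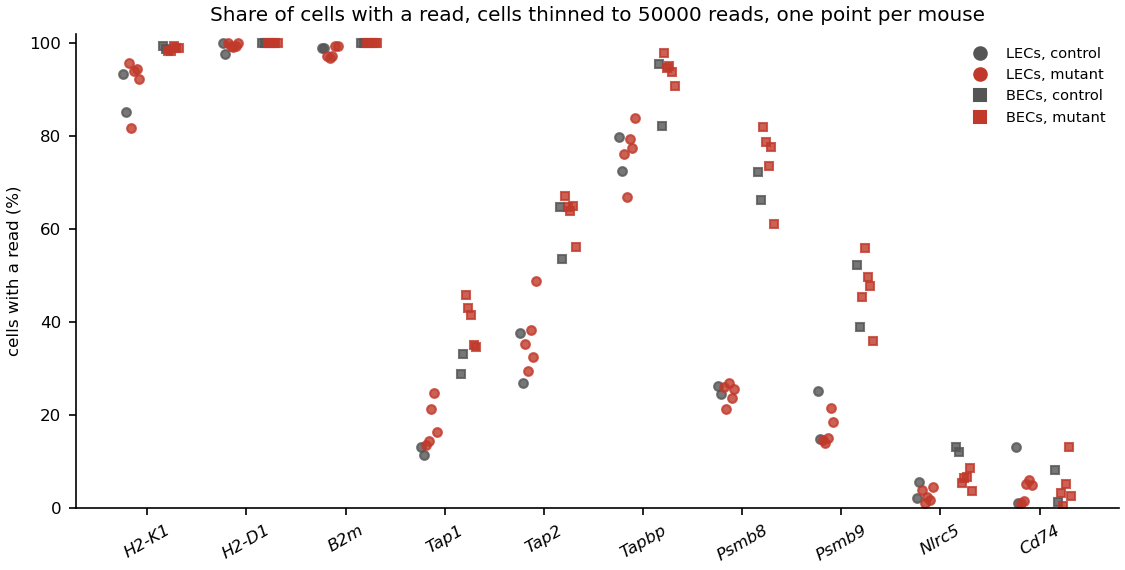
Percentage of cells with at least 1 read after thinning to 50000 reads (y axis) for the 10 genes (x axis), with 1 point per mouse (circles, LECs; squares, BECs; grey, controls; red, mutants). Psmb8 has the widest gap between the cell types, with 27.0% or less of LECs and 61.1% or more of BECs.

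Counting the 9 genes other than Cd74 in each thinned cell, the median LEC had reads of 4 or 5 and the median BEC of 6 or 7, depending on the mouse. Reads of at least 7 of the 9 were present in 4.35–9.26% of LECs and in 26.4–51.6% of BECs, and no cell lacked all 9. The tenth of the LECs with the most H2-K1 held 36.0 ± 1.89% of the H2-K1 reads (SD, n = 7 mice) and the corresponding BECs 20.8 ± 1.45%, for H2-D1 21.7 ± 1.85% and 18.7 ± 1.05%, and for B2m 30.7 ± 3.18% and 21.2 ± 1.65%. For Psmb8 it was 86.4 ± 3.81% in LECs and 38.4 ± 4.46% in BECs, and for Tap1 95.4 ± 3.88% and 67.8 ± 11.6%. Shares of reads of rare genes are set largely by the few cells with any read at this depth.

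Across the cells of one mouse, the genes were weakly correlated, which is described here without a test since cells share their library and depth. Mean correlations over the 7 mice (Pearson's r of log2(CPM + 1) in thinned cells) were 0.37 in BECs and 0.22 in LECs for H2-K1 with H2-D1, 0.26 in LECs and 0.24 in BECs for H2-K1 with B2m, and 0.25 in LECs and 0.17 in BECs for Tap1 with Psmb9. Tap1 and Psmb9 thus had fitted genotype differences of opposite sign in LECs, while their mean correlation among cells of the same mouse was positive. Genes most like the mean of H2-K1, H2-D1 and B2m (each as a z score), over genes with a read in at least 20% of the cells, were sought outside the 10 and without predicted genes, which are not named. In LECs they were Ly6e (mean r 0.25), Ifi27l2a (0.17), Tmem176b (0.15), Ube2l6 (0.14), Bst2 (0.14), Tmem176a (0.14), Il2rg (0.13), Rasa4 (0.13), Irf1 (0.13) and Psme1 (0.13), where the median of 6935 genes was 0.01. In BECs they were H2-Q7 (0.35), Ly6e (0.32), Igfbp7 (0.30), Ly6c1 (0.28), Ly6a (0.28), H2-Q6 (0.27), Esam (0.26), Ifitm3 (0.25), Sparc (0.25) and H2-Q4 (0.24), where the median of 6336 genes was -0.01. H2-Q4, H2-Q6 and H2-Q7 resemble H2-K1 and H2-D1 in sequence, so shared reads could enter their correlation. Ly6e was on both lists, and Bst2, Ifi27l2a, Ifitm3, Ube2l6 and Irf1 are known interferon-inducible genes.

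Further genes of the pathway were read from fixed lists, with no test of the lists. Of all 21933 genes tested between LECs and BECs, 2237 (10.2%) were lower in LECs and 2586 were higher. Between LECs and BECs, 11 of 16 tested class I heavy chain genes outside the 10 were lower in LECs, led by H2-Q6 (3.48–22.6 CPM in LECs and 61.7–191 CPM in BECs, log2 difference -3.35), H2-Q7 (-2.79) and H2-Q4 (-2.26). Higher in LECs were 2 of them, Mr1, which presents vitamin B metabolites (0.80), and Fcgrt, the neonatal Fc receptor (0.59), and 3 were not called. All 3 further immunoproteasome and activator genes were lower in LECs, namely Psmb10, the remaining catalytic subunit (27.0–58.4 CPM in LECs and 129–201 CPM in BECs, -1.97), and the PA28 activator genes Psme1 (-0.50) and Psme2 (-0.62). In contrast, 6 of 14 genes of the constitutive proteasome were higher in LECs, among them Psmb2 (0.48), Psma6 (0.39) and Psmb6 (0.39), and 0 were lower. In the control mice alone these 3 had differences of 0.18, 0.22 and 0.16 that did not pass (edgeR adjusted p 0.431–0.567), and Psmb6 was not called without mutant 3 (0.0568). Of the 7 peptide-loading genes, Erap1, the peptide-trimming aminopeptidase (-1.32), Tapbpl (-1.17) and the glucosyltransferase gene Uggt1 (-0.70) were lower in LECs and the chaperones Calr (0.28) and Canx (0.23) higher. The call of Calr was lost without control 1 (adjusted p = 0.0508), control 2 (0.0937) or mutant 1, 4 or 5 (0.0741–0.0819), and that of Canx without control 1 (0.116), control 2 (0.123) or mutant 2, 3, 4 or 5 (0.0842–0.113).

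Among 22 regulators of the pathway, 8 were lower in LECs (10.2% of all genes tested were) and 1 was higher. Ifngr1, a chain of the interferon-gamma receptor, was at 126–197 CPM in LECs and 286–479 CPM in BECs (log2 difference -1.35, SE 0.08, edgeR adjusted p = 8.99e-06). The interferon-response transcription factors Irf1 (26.9–58.4 CPM in LECs and 140–263.7 CPM in BECs, -2.41) and Irf7 (5.29–24.4 and 68.1–160.5 CPM, -2.84) were lower as well. Irf8 was the one higher in LECs, at 36.6–108 CPM against 1.01–12.7 CPM in BECs (3.60). Medians over the lists were -1.75 for the other heavy chains, -0.62 for the immunoproteasome and activator genes, 0.30 for the constitutive proteasome, 0.04 for peptide loading and -0.24 for the regulators, against 0.02 for all genes.

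By genotype, no gene of these lists passed in LECs, where the smallest list had 3 and the largest 22 tested genes. In BECs only Psme2 passed, 1 of the 3 immunoproteasome and activator genes, where 2.12% of all genes tested were called and 0.611% as lower. None of the 15 other heavy chain, 7 peptide-loading, 14 constitutive proteasome, 9 class II and 22 regulator genes tested passed. Psme2 was at 203 and 249 CPM in the controls and 93.9–130.4 CPM in mutants (log2 difference -0.97, SE 0.18, edgeR adjusted p = 0.0367). Its call held in 9 of 19 alternatives and was lost, for example, without control 1 (adjusted p = 0.0562), control 2 (0.155), mutant 1 (0.0712), mutant 2 (0.0734), mutant 3 (0.0853) or mutant 4 (0.0692). The median log2 differences in BECs were -0.44 for the 3 immunoproteasome and activator genes and -0.35 for the 14 genes of the constitutive proteasome, against 0.01 for all genes.

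The study is concerned with Ptx3-positive capillary LECs, so the LECs of each mutant mouse were split by whether Ptx3 had over 1 read after thinning. Of the 10 genes, 0 were called (5.29% of 18509 genes tested), with 2 of 10 at an unadjusted p under 0.05 (H2-K1 and Nlrc5), against 18.8% of all genes tested. H2-K1 was at 414, 365, 491, 570.4 and 366 CPM in Ptx3-positive LECs of mutants 1–5 and at 606, 476, 574, 570.6 and 465 CPM in Ptx3-negative LECs. It was lower in 5 of 5 mice, by very little in mutant 4 (log2 difference -0.30, SE 0.08, edgeR adjusted p = 0.0945, DESeq2 0.014). Psmb8 was at 9.06–44.1 CPM in Ptx3-positive and 39.3–57.6 CPM in Ptx3-negative LECs and lower in 5 of 5 mice (-0.71, SE 0.39, adjusted p = 0.408). Nlrc5 was at 0.05–2.98 and 2.70–6.67 CPM and lower in 5 of 5 mice (-3.05, SE 0.98, edgeR adjusted p = 0.143, DESeq2 0.0021), although 2 of the 5 Ptx3-positive sums held only 1 or 2 Nlrc5 reads. H2-D1 differed by 0.03 (SE 0.04). DESeq2 called 14.5% of all genes and, of the 10, H2-K1 and Nlrc5.

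On the pathway lists, Calr (0.29, edgeR adjusted p = 0.0484) and Irf8 (0.62, 0.0490) were higher and Ifnar2, a chain of the interferon-alpha receptor (-0.65, 0.0091), lower in Ptx3-positive LECs. Calr was 1 of 7 peptide-loading genes tested, 20 of 22 regulators were not called, and the other pathway lists had no call. Of all genes tested, 5.29% were called. The calls of Calr (0.0673–0.166) and Irf8 (0.0567–0.148) were lost when any of the 5 mutants was left out. All 7 cell-cycle genes were also higher in Ptx3-positive LECs. Without the cycling cells, 0 of the 10 class I and Cd74 genes were called, and the log2 difference of H2-K1 was -0.29 (edgeR adjusted p = 0.314).

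Cd74 (chr18:60803848-60812652, plus strand, GRCm38) had its reads concentrated in few cells. A read as deposited was present in 150 of 1283 mutant LECs (11.7%) and 56 of 358 control LECs (15.6%), and in 117 of 1174 mutant BECs (9.97%) and 38 of 316 control BECs (12.0%). In each of these 4 sets, 5 cells held 50.9–84.3% of the Cd74 reads. Of the Cd74-positive cells, 71 mutant and 45 control LECs and 54 mutant and 27 control BECs had a read of another class II gene, whereas Ptprc (CD45), the antigen used to discard leukocytes, had a read in 2, 4, 7 and 2 of them. Reads of at least 2 immune markers were present in 15, 29, 18 and 10 of the Cd74-positive cells, in the same order. With or without a Cd74 read, cells with such reads numbered 93, 51, 57 and 22 in these sets. Of the cells without a Cd74 read, another class II gene had a read in 145 of 1133 mutant and 36 of 302 control LECs and in 138 of 1057 mutant and 26 of 278 control BECs.

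Cd74 also varied with the mouse: the LEC sum of control 1 was at 14.6 CPM and that of control 2 at 1.06 CPM. After thinning, the highest LEC of control 1 stood at 8300 CPM of Cd74 and that of control 2 at 20 CPM. Among the 178 LECs of control 1 that reached 100000 reads, thinned to that depth, the highest stood at 60 CPM. The level of control 1 therefore came largely from a cell with fewer reads. Whether that cell had reads of immune markers was not tested. In control 1, 43 of 183 LECs had reads of at least 2 of 12 immune markers, against 8 of 175 in control 2. The summed immune markers were 56.1 and 32.3 CPM in these LECs and 16.5–42.9 CPM in mutant LECs, with Itgax at 0 in controls and Cd207 at 0 in mutants, and 12.4 CPM in both control BEC sums and 8.67–16.2 CPM in mutant BECs. Class II genes were near the limit of detection, with H2-Aa at 0.05–15.1 CPM in LECs and 0–11.7 CPM in BECs, H2-Ab1 at 0–8.16 and 1.03–15.6 CPM, and the transactivator Ciita at 0–4.57 and 0–2.65 CPM. Of the 9 class II genes tested between the cell types, only H2-Ob was called, and its level was 0–2.55 CPM in LECs and 0.68–6.93 CPM in BECs. Without the cells that had reads of at least 2 immune markers, the log2 difference of Cd74 between LECs and BECs was -0.02 (edgeR adjusted p = 0.993), and its mutant effect was 2.56 in LECs (0.122) and 0.15 in BECs (0.965).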

How the data were processed

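9 plates of single cells were used, from 5 mutant and 2 control mice. The authors deposited raw read counts per gene and cell and, beside them, exon lengths in bases (featureCounts). Per the methods and the submitters' processing notes, reads were aligned with TopHat2 2.1.1 to GRCm38 plus chicken PIK3CA, duplicates were removed with SAMtools 0.1.18, and counts were made with featureCounts. The annotation version is not given in the sources used here. Symbols came from GENCODE vM21, matching 46005 of 46517 Ensembl genes. Plates held 99738886–151102969 reads.

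Cells with at least 200 genes and 50000 reads, of which no more than 10% mitochondrial, entered. No 2 cells had identical counts. No doublet caller was run; a stricter marker ratio was an alternative. Counts were summed per mouse and cell type, filtered with filterByExpr, scaled by TMM and tested with edgeR 4.0.16 in R 4.3.3 (quasi-likelihood F test, Benjamini-Hochberg adjusted p under 0.05 over all genes tested). CPM uses TMM library sizes. The SE of an edgeR log2 difference is its absolute value divided by the square root of its F statistic, so it was derived from the test. DESeq2 1.42.0, other scalings, filters and cell choices, each mouse left out, a replicate block and a plate series block were alternatives; removing the exon length trend was added after seeing the data. Shares were compared by exact two-sided permutation over mice, in Python 3.11.15 (scipy 1.17.1). The tests were tried on simulated data first. All 10 genes are named. From each pathway list at most the 3 called genes with the smallest adjusted p per direction are named. The 10 genes most correlated with H2-K1, H2-D1 and B2m, predicted genes (Gm numbers and Rik symbols) left out, are named too. Genes and lists were chosen with earlier results of these data known.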

Additional observations from a re-analysis of the deposited data

Results flagged for a closer look

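In 40 tests of 5 mutant mice (levels and shares of the 10 genes in both cell types), 3 gave 1 mouse far from the others by Dixon's criterion, where chance gives about 1 in 20. Cd74 in BECs was at 25.8 CPM in mutant 4, while the other mutants were at 1.44–6.26 CPM. Tap2 in LECs was at 75.0 CPM in mutant 1, below 90.6–96.7 CPM in the other mutants. H2-K1 was detected in 81.8% of the LECs of mutant 2 after thinning, against 92.4–95.7% in the other mutants, and the median LEC of mutant 2 had reads of 4 of the 9 class I genes. Control 2 had the same median in LECs, and H2-K1 was detected in 85.1% of them.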

How the results depend on the processing

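Of 900 log2 differences of the 10 genes under an alternative, 819 kept their sign and their side of the threshold, 62 changed sign, 7 gained and 12 lost a call. Only 2 controls limit every genotype result. The lower levels in LECs of H2-K1, H2-D1, B2m, Tap1, Tap2, Tapbp, Psmb8 and Psmb9 held in 17 of 17 alternatives, and with any mouse left out 8 or 9 of the 10 genes were called. Nlrc5 held in 9 of 17. With DESeq2, genes called among the 10 rose in number from 0 to 3 in LECs by genotype, from 1 to 2 in BECs, from 0 to 1 for the difference of effects and from 0 to 2 by Ptx3. In BECs the count was 0 without control 1 or 2 (0–1 over all mice left out), 0 with the plate series as a block and 0 with a replicate block. The replicate block pairs mice only by number (deviations of mice 1 and of mice 2 correlated at -0.04 and 0.04 in LECs, 0.02 and 0.09 in BECs) and gave 0 calls over all genes in LECs, BECs and the difference, where Psmb9 in BECs had an adjusted p of 0.197. Shares that did not overlap by genotype numbered 3 to 8 with a mouse left out and 1 without thinning, where Tap1 differed by -2.51 (LECs) and -0.58 percentage points (BECs, -0.56 at 100000 reads). For these settings the share over all genes was not taken. Leaving out a control leaves 1, from which the mutants separate more easily. The cause of these changes was not tested.

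Over all genes, the 546 calls in LECs became 2490 with DESeq2, 82 without cycling cells, 305 with equal cell numbers, 160 with the plate series block and 153–546 with a mouse left out. The 410 in BECs became 2238 with DESeq2, 37 with the plate series block and 159–586. The 42 for the difference became 1258 with DESeq2, 69 at a marker ratio of 5, 18 without cycling cells, 4 with the plate series block and 0–21. The 4823 between cell types became 2277 in controls alone, and the 979 by Ptx3 became 2689 with DESeq2, 509 at a marker ratio of 5, 583 without cycling cells, 526 in a joint fit, 496–609, and 0 (1816 unadjusted) with Ptx3-positive cells taken at 1 deposited read.

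None of the sign changes touched a called difference. In LECs by genotype, Tap2 was at -0.0060 (replicate block) and -0.019 (exon length), Tapbp at -0.070 (replicate block) and -0.064 (exon length), and Cd74 at -0.022 (DESeq2), -0.021 (RLE scaling), -1.52 (thinned), -0.29 (first plates), -0.69 (marker ratio of 5), -0.43 (without cycling cells) and -0.029 (exon length). With a mouse left out, Tapbp ranged from -0.17 to 0.40, Psmb8 from -0.084 to 1.15, Nlrc5 from -1.24 to 0.19 and Cd74 from -0.89 to 2.93. In BECs, H2-K1 was at -0.069 (replicate block), -0.076 (plate series) and -0.068 (exon length), Tap1 at -0.16 (plate series), Tapbp at -0.22 (plate series) and -0.091 (exon length), and Cd74 at -0.90 (replicate block) and -0.21 (plate series). With a mouse left out, H2-K1 ranged from -0.013 to 0.18, Tap2 from -0.26 to 0.035, Tapbp from -0.022 to 0.18 and Cd74 from -0.33 to 1.43. For the difference of effects, Tapbp was at 0.0035 (DESeq2, RLE), 0.0021 (no filter), 0.0030 (thinned), 0.057 (without cycling cells), 0.031 (equal cell numbers), 0.23 (plate series), 0.049 (exon length) and -0.19 to 0.15 with a mouse left out, and Cd74 at -0.18 (first plates), -0.022 (marker ratio), -0.29 (without cycling cells) and -0.57 to 1.96. Between cell types, Cd74 was at -0.40 (first plates), -0.080 (marker ratio), -0.022 (without cells of 2 immune markers), -0.28 (controls) and -0.27 to 0.70 with a mouse left out. By Ptx3, H2-D1 was at -0.20 (1 deposited read) and -0.018 (exon length), Tap1 at 0.34 (marker ratio), 0.011 (without cycling cells) and -0.26 to 0.011 with a mouse left out, Tap2 at 0.033 (marker ratio) and 0.37 (1 deposited read), and Tapbp at 0.0072 (1 deposited read).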
